A study of Mus musculus with 4 samples.

Results

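The genes described here encode the subunits of voltage-gated sodium and calcium channels, read in mouse prefrontal cortex on Affymetrix MOE430 2.0 arrays. A gene was taken when the platform annotation gave a probe set (the group of short probes that reads a transcript) exactly 1 symbol that began with Cacna, Cacnb or Cacng and a digit, or was Scn with a number and a or b. This rule found 35 of the 18193 genes measured under 1 symbol, with 85 probe sets among them, and where a gene had several, the one with the highest mean over the 4 arrays stood for it. The study set mice that met repeated social threat (environment HighThreat) against control mice (environment LowThreat). Each group had 2 pools, and each pool held the prefrontal cortex RNA of 5 mice. Levels are log2 values, and where a group has 2 values, pool 1 comes before pool 2. Strain, age, sex and the length of exposure are not given in the labels used here, and the labels name no other treatment. Differences between single mice are hidden inside a pool of 5. The labels do not say whether the pools came from separate cages or days, and p-values here measure only the spread between these pools.

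Voltage-gated sodium channels open on depolarisation and carry the upstroke of the action potential. A large alpha subunit forms the pore, and small single-pass beta subunits adjust its gating and tie it to the cell surface. Voltage-gated calcium channels turn depolarisation into calcium entry, which triggers transmitter release at terminals and signals to enzymes and the nucleus in dendrites and soma. Their pore is the alpha1 subunit, which in the high-voltage classes assembles with a cytosolic beta subunit and an extracellular alpha2delta subunit. Of the gamma proteins, some belong to muscle channels, while most of the brain forms are known as TARPs, which carry AMPA-type glutamate receptors to synapses.

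No channel gene passed the test across the array, and no difference reached 1.5-fold. In limma's test with Benjamini-Hochberg adjustment, 0 of the 35 genes had an adjusted p under 0.05, against 0% of all 45037 probe sets. By the chosen probe sets, the lowest adjusted p of a channel gene was 0.436. At an unadjusted p under 0.05, 3 channel genes were higher in threat (background 4.9% of all genes) and 1 was lower (background 5.76%). Of all genes, 0.896% differed by at least 1.5-fold, and no channel gene was among them. The channel genes tended to small higher values in the threat pools, with 25 of 35 above 0 (55.6% of all genes) and 10 below (44.3%). Both threat pools lay above both control pools ("separate pools") in 14 of the 35 (26.2% of all genes) and below both in 4 (18.8%). The median log2 difference, threat minus control, was 0.14 over the 35 genes and 0.02 over all genes. Transcripts with strong signals lay higher in threat across the whole array: among genes whose mean signal exceeded the array-wide median, 33.1% had separate pools in the higher direction and 15.5% in the lower, at a median of 0.06. On that side of the signal range were 27 of the 35 channel genes, of which 14 were separate and higher, and 1 separate and lower. The counts also moved with the scaling of the arrays. Centring each array on its median gave 17 genes separate and higher (33.45% of all genes) and 2 lower (14.71%), and cyclic loess gave 9 (20.22%) and 5 (21.76%).

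Much of the size of this tendency rested on 1 array. The count of genes above 0 hardly changed without that array, but some genes changed sign. Control pool 1 held the lowest of the 4 values in 19 of the 35 channel genes, against 25.5% of all genes. Without control pool 1 the median difference of the 35 genes was 0.03, the same to 2 decimals as the 0.03 of all genes in that comparison, and without control pool 2 it was 0.20, with 0.01 over all genes. Without threat pool 1 it was 0.08 and without threat pool 2 it was 0.16. By count, 24 of the 35 lay above 0 without control pool 1, but they were not all the same genes. Scn2a, Scn7a, Scn10a and Cacna2d1 turned below 0, while Scn4b, Cacng5 and Cacna2d2 turned above 0. In that comparison, where fewer pools have to be apart, 19 were separate and higher (44.3% of all genes) and 9 separate and lower (30.24%). At an unadjusted p under 0.05 in limma's test there were no channel genes without control pool 1 (7.15% of all genes) and 13 without control pool 2 (9.18%). Without threat pool 1 there were 2 (5.76%) and without threat pool 2 there was 1 (6.43%).

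**Figure D1:**
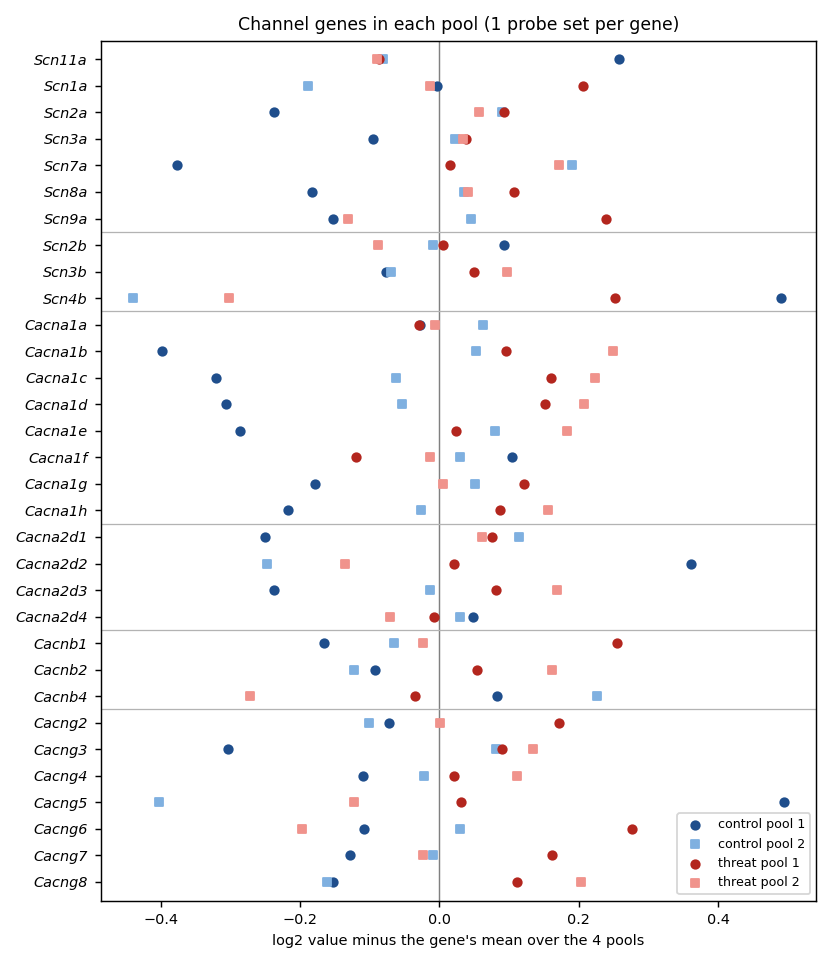
Log2 value of each channel gene in each pool, minus the gene's mean over the 4 pools (x axis), for the 32 genes with at least 1 pool above the highest Bacillus control value; circles are pool 1, squares pool 2, blue control and red threat, and grey lines part the 6 families. Control pool 1 lies at the far left for Cacna1b, Cacna1c, Cacna1d, Cacna2d3 and Scn7a, and at the far right for Scn4b, Cacng5 and Cacna2d2.

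Markers of oligodendrocytes, mural cells and endothelium had medians farther from 0 than the channel genes, while those of microglia, astrocytes and oligodendrocyte precursors did not. All 9 measured markers of oligodendrocytes, the myelinating cells, were lower in both threat pools, with a median of -0.99 and a mean log2 level of 10.44 and 9.998 in control against 9.11 and 9.34 in threat. All 5 mural cell markers were also separate and lower, with a median of -1.24 and mean levels of 8.87 and 9.66 in control against 8.02 and 8.35 in threat. Endothelial markers had a median of -0.34 over 5 genes, microglial markers -0.11 over 6, astrocyte markers -0.09 over 6 and oligodendrocyte precursor markers -0.06 over 4. Of the astrocyte markers, 3 were separate and lower, with Gfap at -0.59 and Gja1 at -0.36 the largest, and 1 lay above 0. Neurons are the main site of these channels. Their 8 general markers, all above background, had a median of -0.03, and 4 were separate and lower, with a mean level of 12.01 and 12.04 in control and 11.97 and 11.96 in threat. For excitatory neurons, 9 markers had a median of 0.04, with mean levels of 10.04 and 10.02 in control and 10.02 and 9.999 in threat. Of these, 2 were separate and lower, Tbr1 at -0.53 and Neurod6 at -0.39. Another 1 was separate and higher, Slc17a7 at 0.23. For inhibitory neurons, 8 markers had a median of -0.09, with mean levels of 10.29 and 10.08 in control and 10.18 and 9.98 in threat. Among them 2 were separate and lower, Gad1 at -0.42 and Gad2 at -0.275, and 1 separate and higher, Lhx6 at 0.265. Over all genes, 18.8% were separate and lower and 26.2% separate and higher. The counts for excitatory and inhibitory neurons are therefore not read as a change in these markers. No neuronal marker had an adjusted p under 0.05 in limma's test, and the neuronal medians lay near 0. No neuronal or glial marker was at background. The part of these shifts in the channel values was not tested, and in tissue RNA fewer cells of a type and less RNA per cell cannot be told apart.

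The alpha1 pore subunits of calcium channels and the beta subunits had the family medians farthest from 0. Of 9 alpha1 genes, 6 lay above 0 (55.6% of all genes) and 3 below (44.3%). Of these 9, 4 were separate and higher (26.2%) and 1 separate and lower (18.8%), and the family median was 0.21. Both L-type genes of neurons had higher values in threat. These channels, slow to inactivate, open in soma and dendrites and signal to gene transcription. Cacna1c measured 7.29 and 7.55 in control pools 1 and 2, and 7.77 and 7.83 in threat pools 1 and 2. Its log2 difference was 0.38 ± 0.12 (SE), a 1.30-fold higher value, with an adjusted p = 0.439 and an unadjusted p = 0.0202 in limma's test. The groups did not overlap, and the other probe set of Cacna1c, at 7.17, 7.65, 7.73 and 7.85 in the same order of pools, was separate with the same difference of 0.38. Cacna1d measured 7.27 and 7.53 in control and 7.73 and 7.79 in threat, a difference of 0.36 ± 0.12 (unadjusted p = 0.0244, adjusted p = 0.446 in limma's test). Its other probe set, at 6.19 and 6.27 in control and 6.52 and 6.84 in threat, differed by 0.45. Both genes thus lay higher in threat by each of their probe sets, and control pool 1 was the lowest array in all 4. Without control pool 1 the differences were 0.25 for Cacna1c and 0.23 for Cacna1d.

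Cacna1b, the pore of the N-type channel of nerve terminals, measured 9.01 and 9.46 in control and 9.504 and 9.66 in threat. Its difference was 0.35 ± 0.17 (unadjusted p = 0.0893, adjusted p = 0.509 in limma's test). The groups were separate by only 0.04, and control pool 1 stood apart from the other 3 pools. Without control pool 1 the difference was 0.12, and without control pool 2 it was 0.57. All 4 probe sets of Cacna1b lay above 0 and 3 of them were separate. In the probe set with the lowest mean, the control pools were close to each other at 7.16 and 7.23 and the threat pools stood at 7.495 and 7.60, a difference of 0.35 ± 0.10. Cacna1a, which forms the P/Q-type channel of fast central synapses, did not share this: its values were 7.11 and 7.20 in control and 7.11 and 7.14 in threat. Of its 4 probe sets, 3 lay below 0 and 2 of these were separate and lower, with the largest at -0.29 (4.72 and 4.52 in control, 4.32 in both threat pools). The threat values of that probe set lie close to 4.25, the highest Bacillus control value, so its direction is uncertain. The other separate probe set was at -0.09. The direction for Cacna1a turned to 0.0009 when each array was centred on its median.

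Cacna1e, the R-type pore, measured 10.40 and 10.77 in control and 10.71 and 10.87 in threat. Its difference of 0.21 came with overlapping groups. The second probe set of Cacna1e, at 5.11 and 5.24 in control and 5.35 and 5.77 in threat, was separate and higher at 0.39. T-type channels open near the resting potential and support burst firing, and both measured genes leaned the same way. Cacna1h measured 8.09 and 8.28 in control and 8.40 and 8.47 in threat, a difference of 0.24 with separate pools that was 0.15 without control pool 1. Its other probe set overlapped between the groups, at 0.03. Cacna1g measured 7.85 and 8.08 in control and 8.15 and 8.04 in threat, with overlap. Cacna1f, the L-type pore known from photoreceptor terminals, was lower in threat, at 5.41 and 5.34 against 5.19 and 5.29, a difference of -0.13 that was -0.08 without threat pool 1. All 4 pools of Cacna1s, the pore of skeletal muscle, lay between 3.71 and 3.97, none above 4.25, the highest value of the 27 control probe sets for Bacillus genes, which are foreign to mouse RNA. Of the 6 skeletal muscle markers, Myh1, Myh4 and Tnnt3 were likewise no higher than that value in any pool, while Acta1 was at 8.09 and 8.08 in control and 8.18 and 8.02 in threat, Ckm at 5.29 and 5.21 against 5.24 and 4.83, and Mylpf at 4.83 and 4.38 against 4.68 and 4.81. The 6 had mean levels of 4.96 and 4.81 in control and 4.99 and 4.88 in threat, with a median difference of 0.08.

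**Figure D2:**
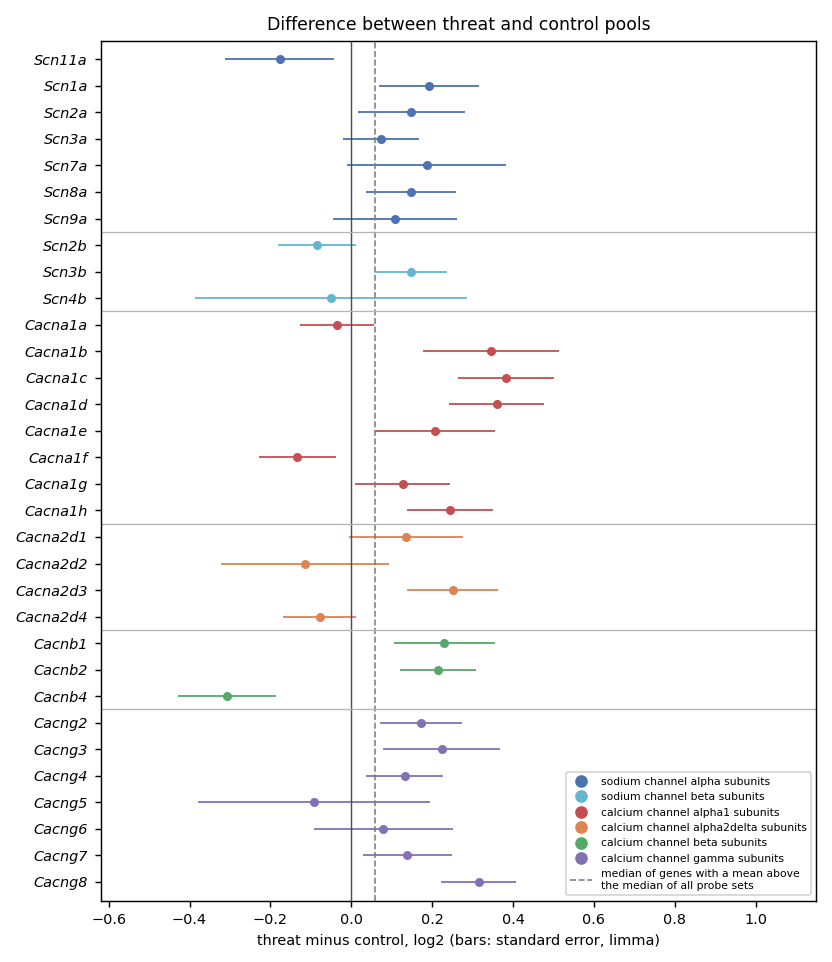
Threat minus control log2 difference of the 32 channel genes with at least 1 pool above the highest Bacillus control value (points, coloured by family) with limma's standard error (bars); the dashed line is the median of 0.06 of all genes whose mean signal exceeded the array-wide median. Cacna1c at 0.38 and Cacna1d at 0.36 lie at the right end, and Cacnb4 at -0.31 at the left.

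The cytosolic beta subunits, which bring the alpha1 pore to the membrane and set its gating, were split. Cacnb4, the subunit lost in the lethargic mouse, which has ataxia and seizures, was the channel gene with the largest lower value in threat. By its chosen probe set it measured 10.95 and 11.10 in control and 10.83 and 10.60 in threat, a difference of -0.31 ± 0.12 or 1.24-fold, with an adjusted p = 0.468 and an unadjusted p = 0.0468 in limma's test. A second probe set, at 9.97 and 9.99 in control and 9.67 and 9.48 in threat, was lower by -0.41 ± 0.11 (unadjusted p = 0.01). The third probe set went the other way, with 9.13 and 9.09 in control and 9.33 and 9.46 in threat, a difference of 0.29 ± 0.10 (unadjusted p = 0.027). Each of the 3 had separate pools, so the gene's direction depended on the probe set. Without threat pool 2 the difference of the chosen probe set was -0.19, and with the mean of the 3 probe sets Cacnb4 was no longer among the genes with an unadjusted p under 0.05. Nor was it among them with the pool number as a block or with each array centred on its median.

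RefSeq lists 3 transcription starts of Cacnb4 in GRCm38.p6, and because the probe sets of this gene disagree, the window from 250 bases before to 50 after each start is shown. Which transcripts each probe set reads is not given in the tables used here. Capitals mark GC boxes (GGGCGG on either strand, where overlapping matches run together), the letters bound by Sp1-type factors.
Cacnb4 window at chr2:52558562-52558861, minus strand: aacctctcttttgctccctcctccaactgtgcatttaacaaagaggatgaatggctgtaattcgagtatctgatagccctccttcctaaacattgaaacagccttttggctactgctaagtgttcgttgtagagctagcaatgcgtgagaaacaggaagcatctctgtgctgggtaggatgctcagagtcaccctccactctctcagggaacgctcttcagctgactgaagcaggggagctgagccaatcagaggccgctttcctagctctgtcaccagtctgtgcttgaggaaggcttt
Cacnb4 window at chr2:52675810-52676109, minus strand: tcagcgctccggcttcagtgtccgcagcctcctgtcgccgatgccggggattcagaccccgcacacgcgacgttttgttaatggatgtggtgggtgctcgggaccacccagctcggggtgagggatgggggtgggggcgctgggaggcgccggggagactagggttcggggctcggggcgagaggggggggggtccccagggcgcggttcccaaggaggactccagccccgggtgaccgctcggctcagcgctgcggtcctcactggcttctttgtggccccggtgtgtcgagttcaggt
Cacnb4 window at chr2:52676094-52676393, minus strand: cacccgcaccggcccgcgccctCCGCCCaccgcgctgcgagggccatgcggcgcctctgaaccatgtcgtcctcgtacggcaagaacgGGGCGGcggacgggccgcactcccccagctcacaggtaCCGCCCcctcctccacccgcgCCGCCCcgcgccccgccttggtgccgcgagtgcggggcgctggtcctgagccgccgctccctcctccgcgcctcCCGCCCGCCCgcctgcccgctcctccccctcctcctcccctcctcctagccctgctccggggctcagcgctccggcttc
The window with the highest coordinates held 6 GC boxes, 40 CpG pairs and 78.3% G or C. Its neighbour, which shares 16 bases with it, held no GC box, 27 CpG pairs and 69.7% G or C. The start farthest away held no GC box, 5 CpG pairs and 49.7% G or C. Windows were found for 27 of the 35 channel genes, 37 windows in all, and 37.8% of these held a GC box, against 35.7% of all 32851 windows of the same length. The TATAAA letters (either strand) were in 5.41% of the channel windows and 13.6% of all windows, and the cAMP response element TGACGTCA was in none of the channel windows and 1.79% of all. These matches describe the letters of the windows and no site of binding.

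Cacnb1 was higher in threat by its chosen probe set, at 9.03 and 9.14 in control and 9.45 and 9.18 in threat, a difference of 0.23 ± 0.12 (unadjusted p = 0.119, adjusted p = 0.533 in limma's test). The size was set by threat pool 1, without which it was 0.09, and it was 0.37 without threat pool 2. Of its 4 probe sets, 3 were separate and higher and 1 lay at 0.00. The largest difference, with the lowest unadjusted p among the 85 probe sets, was that of its probe set with the lowest mean, at 5.90 and 5.98 in control and 6.37 and 6.46 in threat (0.47 ± 0.10, unadjusted p = 0.0033, adjusted p = 0.413 in limma's test). Cacnb2, a membrane-anchored beta subunit in several of its forms, measured 8.47 and 8.44 in control and 8.62 and 8.73 in threat, a difference of 0.22 ± 0.09 (unadjusted p = 0.0651, adjusted p = 0.487). Its other probe set differed by 0.14 with overlapping groups. The family median of the 3 genes was 0.22, with 2 separate and higher (26.2% of all genes) and 1 separate and lower (18.8%).

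**Figure D3:**
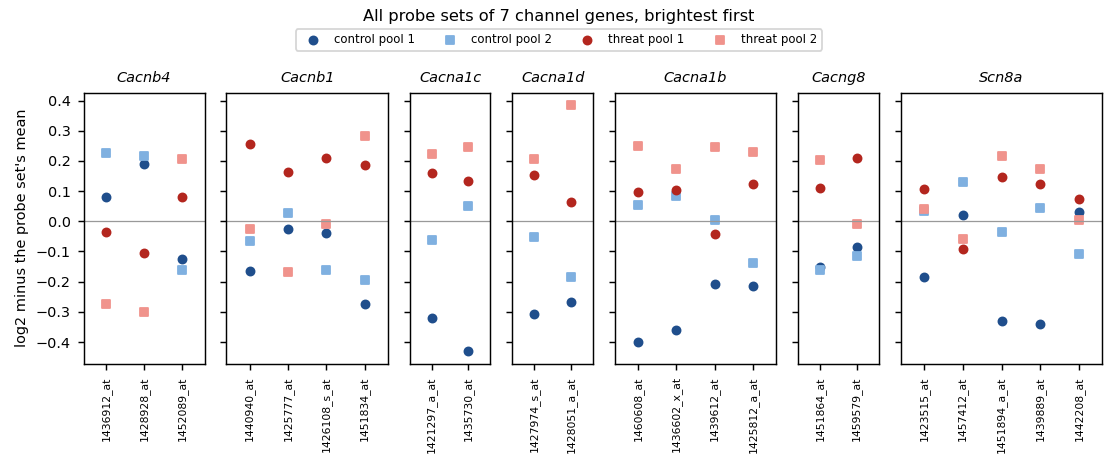
Every probe set of 7 channel genes (x axis, ordered within a gene by mean), as the log2 value in each pool minus the probe set's mean (y axis). The probe sets of Cacna1c and Cacna1d all have both threat pools (red) on top, while Cacnb4 has threat below control in 2 probe sets and above it in the third, and Scn8a is lower in 1 probe set and higher in 3.

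The extracellular alpha2delta subunits raise the number of channels at the surface and bind gabapentin in the case of Cacna2d1 and Cacna2d2. Of the 4 genes, 2 lay above 0 (55.6% of all genes) and 2 below (44.3%), with a median of 0.03. Cacna2d3 measured 9.81 and 10.03 in control and 10.13 and 10.22 in threat, a difference of 0.25 ± 0.11 with separate pools (unadjusted p = 0.0731, adjusted p = 0.497 in limma's test). It was 0.14 without control pool 1. Cacna2d1 measured 11.37 and 11.73 in control and 11.69 and 11.68 in threat, so that control pool 1 was low and the other 3 pools were alike (0.14 ± 0.14, unadjusted p = 0.374). Cacna2d2 measured 8.87 and 8.26 in control and 8.53 and 8.37 in threat, where the control pools lay on both sides of the threat pools (-0.11 ± 0.21, unadjusted p = 0.603). Cacna2d4, known from the retina, was at 4.68 and 4.66 in control and 4.62 and 4.56 in threat, a small difference of -0.08 with separate pools that was -0.05 without threat pool 2.

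The gamma family had a median of 0.14: 7 of 8 genes lay above 0 (55.6% of all genes) and 4 were separate and higher (26.2%). Among genes whose mean signal exceeded the array-wide median, 33.1% were separate and higher. Of the 7 gamma genes with a pool above the highest Bacillus value, 6 lay above 0. Among the TARPs, Cacng8 had the lowest unadjusted p of the 35 channel genes by their chosen probe sets. Its values were 7.12 in both control pools, 7.39 in threat pool 1 and 7.48 in threat pool 2, a difference of 0.31 ± 0.09 or 1.24-fold (unadjusted p = 0.016, adjusted p = 0.436 in limma's test). The groups stood clear of each other and no single pool carried the difference, which ran from 0.27 to 0.36 when each pool was left out. Its other probe set, at 5.93 and 5.90 in control and 6.22 and 6.003 in threat, was also separate and higher. Cacng2, stargazin, the founding TARP, measured 8.75 and 8.73 in control and 8.998 and 8.83 in threat, a difference of 0.17 ± 0.10 (unadjusted p = 0.145) that was 0.09 without threat pool 1. A second probe set of Cacng2 was separate and higher by 0.17, and the third lay at -0.04.

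Cacng3, a TARP of forebrain neurons, measured 9.85 and 10.24 in control and 10.25 and 10.29 in threat (0.22 ± 0.15, unadjusted p = 0.18). Control pool 2 lay 0.01 below the nearer threat pool, and the difference was 0.03 without control pool 1 and 0.42 without control pool 2. Cacng4, another TARP, was at 8.41 and 8.49 in control and 8.54 and 8.63 in threat, separate by 0.04, and its second probe set lay at -0.07. Without control pool 1 the difference of the first was 0.09 and without threat pool 2 likewise 0.09, against 0.13. The TARPs of the second class both overlapped between the groups by their chosen probe sets. Cacng7 measured 8.59 and 8.71 in control and 8.88 and 8.70 in threat. Its second probe set, at 6.02 and 6.10 in control and 6.22 and 6.21 in threat, was separate and higher at 0.16. Cacng5 measured 7.38 and 6.48 in control and 6.91 and 6.76 in threat, a gap of 0.90 between the control pools. Cacng6, a muscle-type gamma gene, was at 5.09 and 5.23 in control and 5.47 and 5.00 in threat. Cacng1, the gamma subunit of skeletal muscle channels, stayed between 3.81 and 3.84, under the highest Bacillus value.

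Sodium channel alpha genes differed little between the groups. Of 8 genes, 7 lay above 0 (55.6% of all genes), 2 were separate and higher (26.2%) and 1 separate and lower (18.8%), and the median was 0.13. Of the 7 with a pool above the highest Bacillus value, 6 lay above 0, at a median of 0.15. The 1 separate and lower, Scn11a, lay close to that value. None of the 8 had an unadjusted p under 0.05. Scn2a, the channel of excitatory axons early in development and of their initial segments, measured 11.61 and 11.94 in control and 11.94 and 11.90 in threat. Control pool 1 alone was low, and without it the difference of 0.15 became -0.02. All 4 probe sets of Scn2a lay above 0, between 0.08 and 0.20, and 1 was separate. Scn8a, the main channel of mature nodes of Ranvier and distal initial segments, measured 10.52 and 10.73 in control and 10.81 and 10.74 in threat, a difference of 0.15 with the groups 0.01 apart. It was 0.04 without control pool 1 and 0.26 without control pool 2. Probe sets of Scn8a did not run together: 2 others were separate and higher at 0.36 and 0.30, 1 was separate and lower at -0.15 (8.94 and 9.05 in control, 8.83 and 8.87 in threat), and the last overlapped.

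Scn1a, the channel of fast-spiking inhibitory neurons, measured 9.25 and 9.06 in control and 9.46 and 9.24 in threat. Its difference of 0.19 ± 0.12 (unadjusted p = 0.174, adjusted p = 0.584 in limma's test) came with overlapping groups, control pool 1 lying above threat pool 2. Leaving out threat pool 1 gave 0.08, leaving out control pool 2 gave 0.10, and leaving out threat pool 2 gave 0.30. All 3 of its probe sets lay above 0 and 1 was separate. Scn3a, most used before birth, was at 8.64 and 8.76 in control and 8.78 and 8.77 in threat. Those groups were 0.01 apart, and the difference of 0.07 was 0.01 without control pool 1 and 0.13 without control pool 2. Scn7a, a sodium-sensing relative that does not open with voltage and is known from glia, measured 6.11 and 6.68 in control and 6.501 and 6.66 in threat (0.19 ± 0.20, unadjusted p = 0.383), and control pool 1 was lowest in all 3 of its probe sets. The difference was -0.10 without control pool 1 and 0.47 without control pool 2. In GRCm38.p6 Scn1a, Scn9a and Scn7a are neighbours with no other protein-coding gene between them, as are Scn3a and Scn2a.

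The channels of sensory neurons were at the edge of detection. Scn11a was at 4.65 and 4.31 in control and 4.30 in both threat pools, a difference of -0.18 ± 0.13 (unadjusted p = 0.239) that came from control pool 1 and was -0.01 without it and -0.35 without control pool 2. Scn9a was at 3.95 and 4.15 in control and 4.35 and 3.98 in threat, with 1 of 4 pools above the highest Bacillus value. Scn10a stayed between 3.74 and 4.05, at or below that value throughout. No direction can be read from values this close to background.

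Of the sodium channel beta genes, only Scn3b had separate pools (1 of 3, higher, against 26.2% of all genes). This subunit, which binds the pore without a covalent link, measured 11.12 in both control pools and 11.24 and 11.29 in threat. The difference of 0.15 ± 0.09 (unadjusted p = 0.153, adjusted p = 0.566 in limma's test) was small but ran only from 0.12 to 0.17 when each pool was left out, and the second probe set, at 8.28 and 8.27 in control against 8.44 and 8.59, was also separate at 0.24. Scn2b, which is joined to the pore by a disulfide bond, measured 11.34 and 11.24 in control and 11.25 and 11.16 in threat (-0.08 ± 0.10, unadjusted p = 0.421). Its 3 probe sets overlapped between the groups. Scn4b, the other disulfide-linked subunit, was the most uneven of the family, at 7.12 and 6.19 in control and 6.88 and 6.33 in threat (-0.05 ± 0.34, unadjusted p = 0.887). Scn2b and Scn4b are neighbours in GRCm38.p6. The family median was -0.05.

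Scn4b, Cacng5 and Cacna2d2 are set side by side because of the order of their pools: control pool 1 was highest, followed by threat pool 1, threat pool 2 and control pool 2. This holds for the chosen probe sets. The second probe set of Cacng5, at 5.36 and 4.86 in control and 4.95 and 4.77 in threat, did not have this order. The 3 genes were 8.57% of the 35 channel genes, against 5.18% of all genes, a share near the background. Scn4b is known for its high level in the striatum, so markers of striatal neurons, chosen after these values were seen, were read beside them. Of 10 listed, 8 were measured, all above background. Drd2, Ppp1r1b and Rgs9 had that same order (37.5% of the 8, against 5.18% of all genes) and the other 5 did not. Of the other 5, Penk, Tac1 and Pde10a also had control pool 1 highest, while Drd1 and Gng7 did not. Ppp1r1b, the dopamine-regulated phosphatase inhibitor of striatal projection neurons, measured 8.90 and 8.20 in control and 8.56 and 8.36 in threat. Drd1, a dopamine receptor, was at 8.27 and 7.82 in control and 8.44 and 8.11 in threat, and Pde10a, at 8.73 and 8.71 in control and 7.96 in both threat pools, separated by group. The part of striatal tissue in the channel values was not tested.

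**Figure D4:**
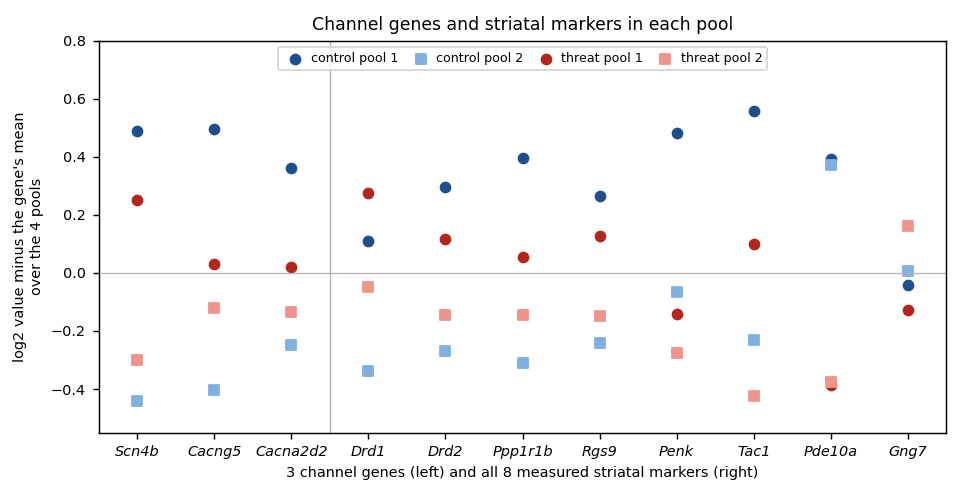
Log2 value in each pool minus the gene's mean over the 4 pools (y axis) for Scn4b, Cacng5 and Cacna2d2, picked for the order of their pools, and for all 8 measured striatal markers; blue is control, red threat, circles pool 1 and squares pool 2. The order of the pools differs among the 8 markers, and Pde10a has both threat pools below both control pools.

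The weight of each control pool differed from gene to gene. Cacna1e went from 0.21 to 0.02 without control pool 1, Cacna1g from 0.13 to 0.01 and Cacna2d1 from 0.14 to -0.05. Cacnb2, Cacng8 and Scn3b, in which the 2 control pools lay 0.01 to 0.03 apart, kept differences of 0.23, 0.32 and 0.14 without control pool 1 and 0.20, 0.31 and 0.15 without control pool 2. Cacnb4 stayed lower, at -0.38 and -0.24.

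**Figure D5:**
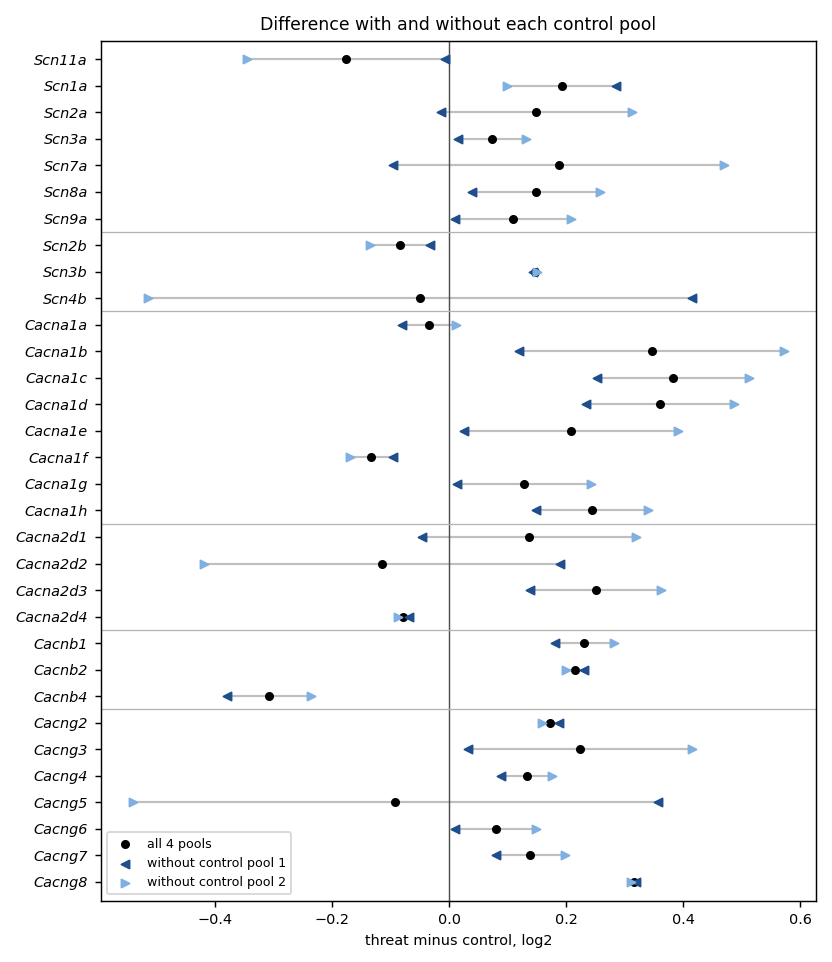
Threat minus control log2 difference of the 32 channel genes with at least 1 pool above the highest Bacillus control value, with all 4 pools in black; dark blue marks (pointing left) leave out control pool 1, and light blue marks (pointing right) leave out control pool 2. The symbols lie close together for Cacng8, Cacnb2, Scn3b and Cacna2d4, and farthest apart for Scn4b, Cacng5, Cacna2d2 and Scn7a.

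Proteins that hold, sense or steer these channels were read as well, from a list of 48 genes of which 41 were measured. Their median difference was 0.06, 12 were separate and higher (26.2% of all genes) and 6 separate and lower (18.8%), and limma's test gave none an adjusted p under 0.05. The release site group, which ties calcium channels to vesicles, had a median of 0.10 over 9 genes, and 4 were separate and higher. In it, the vesicle-priming protein gene Unc13a measured 8.82 and 8.90 in control and 9.16 and 9.10 in threat (0.27 ± 0.09, unadjusted p = 0.0282), Rimbp2, which links release sites to calcium channels, differed by 0.22 (0.10 when control pool 1 was left out, 0.34 when control pool 2 was, and 0.13 when threat pool 1 was), and Snap25, a fusion protein of vesicles, was separate and lower at -0.14. Scaffolds, adaptors and ligases had a median of 0.12 over 7 genes, with 4 separate and higher. Stac, an adaptor of L-type channels, was at 4.57 and 4.43 in control and 4.78 and 4.95 in threat (0.36 ± 0.11, unadjusted p = 0.0188 in limma's test). Its control values lie close to 4.25, the highest Bacillus control value, so its direction is uncertain.

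Anchors of the axon initial segment and node had a median of 0.06 over 7 genes. Cntnap1, a paranodal adhesion protein, differed by -0.33, which was -0.06 without control pool 1 and -0.61 without control pool 2. Ank3, the ankyrin that holds sodium channels at the initial segment, differed by 0.09 with overlap, and by -0.02 without control pool 1. Of the 4 FGF homologous factors, cytosolic proteins that bind sodium channel tails, Fgf14 was separate and lower, at 8.55 and 8.63 in control and 8.35 and 8.36 in threat (-0.24 ± 0.09, unadjusted p = 0.0409), and the median was -0.02. Calcium sensors had a median of 0.03 over 5 genes, with the kinase subunit Camk2d separate and lower at -0.51, which was -0.18 without control pool 2 and -0.83 without control pool 1. Leak and related channels had a median of 0.07 over 6 genes, with Unc80 of the sodium leak complex at 0.22 and the pacemaker channel Hcn2 at -0.19, both with separate pools. The small GTPase inhibitors of calcium channels, 3 of 4 measured, had a median of -0.09 with no separate pools.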

How the data were processed

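Total RNA of prefrontal cortex was pooled from 5 mice per array, extracted with a Qiagen kit and labelled with biotin, per the labels' protocols. The deposited values were log2 expression values made by the authors with RMA, per the submitters' processing notes, with version, settings and filters not given in the sources used here. RMA usually gives all arrays 1 distribution, which hides a shift shared by most transcripts. Array medians lay between 5.53 and 5.58.

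The 64 control probe sets were left out. Threat was compared with control in the other 45037 by limma 3.58.1 (R 4.3.3; lmFit, then eBayes with no trend, 2-sided, 2 residual degrees of freedom, median SE 0.108), tested on simulated data. An exact permutation test of 2 against 2 pools cannot go below p = 0.333, so none was run. Symbols came from the platform annotation. Values in all pools are given for genes with a pool above the highest Bacillus control value (4.25), and statistics for the up to 3 largest differences per family. Differences from array to array are set within a probe set, and levels of different probe sets are not compared. Members and lists were chosen with earlier results of these data known. Alternatives were the pool number as a block, other scalings, a trend, other choices of probe sets and leaving out each pool.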

Additional observations from a re-analysis of the deposited data

How the results depend on the processing

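With 2 pools a group, limits come from the number of arrays. Under every alternative run, limma gave 0 channel genes an adjusted p under 0.05. Cyclic loess gave 9 genes separate and higher, in place of 14, and a calcium channel beta median of 0.14. Centring on the array median gave 2 separate and lower in place of 4. Keeping only probe sets above the median of all left 27 of the 35 genes, with their differences unchanged. Of these, 1 was separate and lower (15.51% of the genes kept). Scn11a, Cacna1f and Cacna2d4 were dropped, and the alpha2delta median of the genes kept was 0.14. Leaving out each pool in turn gave 0 genes called, 0 to 13 with an unadjusted p under 0.05, 15 to 22 separate and higher (36.74 to 44.3% of all genes) and 5 to 9 separate and lower (29.47 to 34.82%), where fewer pools have to be apart. The medians then ran from 0.0008 to 0.21 for sodium alpha, -0.14 to 0.14 for sodium beta, 0.0244 to 0.34 for alpha1, 0.0097 to 0.12 for alpha2delta, 0.0911 to 0.20 for calcium beta and 0.0663 to 0.22 for gamma. The lone pool left in a group is assumed to vary like the other group.

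Both groups number their pools 1 and 2, and no label says that a number marks a shared day or batch. Deviations of same-numbered pools correlated at 0.33 over all probe sets. With the pool number as a replicate block, 6 channel genes (13.6% of all genes) had an unadjusted p under 0.05 in place of 4, all higher: Cacnb4 was lost and Cacna1b, Cacna2d3 and Cacna1h were added. Of these, 0 passed the adjusted threshold and the smallest adjusted p of any probe set was 0.368. The cause of these shifts was not tested.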
